A study of Homo sapiens with 6 samples.

Results

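Genes used as internal references for qPCR and as loading controls in Western blots were followed in Hep-G2 cells with and without knockdown of CLGN, which encodes the endoplasmic reticulum chaperone calmegin. The 9 genes were ACTB, ACTG1, TBP, HPRT1, PPIA, TUBB, TUBA1B, SDHAF2 and YWHAZ, taken by gene symbol from a table of 58735 genes, and all 9 were among the 13074 genes tested. GAPDH, another common reference, is set beside them but is not counted among them. Hep-G2 is a hepatocellular carcinoma cell line. The study compared 3 libraries of cells transduced with a control hairpin (sh-NC, labelled wild type for CLGN) with 3 libraries of cells transduced with a hairpin against CLGN (sh-CLGN). Both groups received a lentivirus and were selected with puromycin, and each group had 1 hairpin. Nothing in the labels says whether the 3 libraries of a group came from separate cultures, so p-values measure the spread between these libraries, which may be technical.

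A reference gene is a transcript whose level is taken as constant, so that other transcripts can be divided by it. The usual choices are genes of basic cell upkeep. ACTB and ACTG1 encode the cytoplasmic beta and gamma actins, which polymerize into the filaments of the cell cortex. TUBB and TUBA1B encode a beta and an alpha tubulin, which pair to form microtubules. PPIA encodes cyclophilin A, a prolyl isomerase, and YWHAZ encodes the zeta form of the 14-3-3 proteins, adaptors that bind phosphorylated partners. HPRT1 salvages hypoxanthine and guanine for purine nucleotides, TBP binds the TATA element within the general transcription factor TFIID, and SDHAF2 attaches the flavin cofactor to a subunit of succinate dehydrogenase, complex II of the respiratory chain. The study divided its qPCR values by beta-actin, and a change of ACTB between the samples compared would enter such a ratio. Only sh-CLGN against sh-NC was measured here, so ACTB under the study's other treatments is not covered.

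The libraries held 14955816 to 16244639 reads on genes, recovered from the deposited values as described in the processing notes. The library sizes used in the deposited scaling were 0.933 to 0.953 of these totals in sh-NC and 1.07 to 1.08 of them in sh-CLGN, so the scaling lowered the sh-CLGN values against a scaling by totals. CLGN itself measured 24.1, 21.0 and 26.1 FPKM (fragments per kilobase of transcript, scaled by library size) in sh-NC and 9.48, 8.88 and 8.60 FPKM in sh-CLGN, without overlap. All 10 hepatocyte markers were tested, 4 of them higher and 5 lower in sh-CLGN (5 and 3 with read totals, 5 and 2 with quantile normalization). Over all genes tested 26.7% were higher and 39.0% lower under the deposited scaling. The summed level of the markers was 7868 to 8132 FPKM in sh-NC and 8105 to 8697 FPKM in sh-CLGN. Single markers moved in opposite directions within these sums. On average ALB fell from 2007 to 1076 FPKM and TF from 181 to 58.4 FPKM, while AFP rose from 2670 to 3782 FPKM. Of 10 fibroblast markers, the 5 that were tested were all higher in sh-CLGN (4 of 5 with quantile normalization). COL1A1, COL3A1 and LUM averaged 0.327, 0.265 and 0.304 FPKM in sh-NC. They reached the filter of 1 FPKM in 3 libraries only through sh-CLGN, which partly fixed that count in advance. The summed level of the list was 7.17 to 8.51 FPKM in sh-NC against 48.5 to 49.9 FPKM in sh-CLGN. COL1A2 alone averaged 38.7 FPKM in sh-CLGN, so most of the sum and of its rise came from this gene. Among the fibroblast markers that were not tested, PDGFRA had 46 to 70 reads in sh-NC and 136 to 179 reads in sh-CLGN. DCN, THY1, FAP and POSTN had at most 1 read in any library. Endothelial markers summed to at most 3.67 FPKM and leukocyte markers to at most 1.56 FPKM. The part of these differences in the results on the reference genes was not tested.

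Under the deposited scaling, all 9 reference genes passed the test for a difference between the groups. ACTB, ACTG1, TUBB, PPIA, TUBA1B, YWHAZ, HPRT1 and TBP were lower in sh-CLGN and SDHAF2 was higher, each at an adjusted p of at most 0.05 (limma, Benjamini-Hochberg over all genes tested). Lower calls made up 39.0% of all genes tested and higher calls 26.7%, so the calls alone do not set the reference genes apart, and the lean toward lower values is read against that background. The median log2 fold change of the 9 was -0.46, beside -0.08 over all genes tested. Only HPRT1 also passed an absolute log2 fold change of 1, as did 3.19% of all genes tested in the lower direction. In all 9 the 3 libraries of one group lay wholly to one side of the other group, a pattern found downward in 41.5% and upward in 28.7% of all genes tested. In bulk RNA, fewer cells that express a gene and less of its RNA per cell cannot be told apart. Fold changes are on the scale of log2(FPKM + 1), which understates changes of genes with low values.

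**Figure D1:**
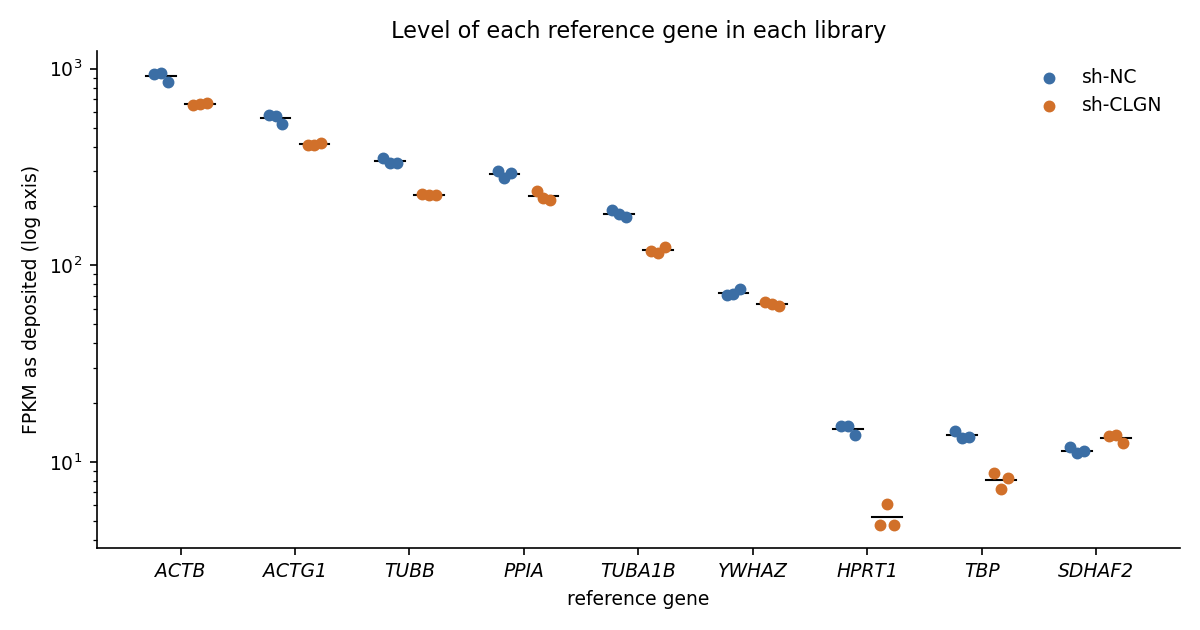
Level of each of the 9 reference genes in each library, in FPKM on a log axis, with sh-NC in blue, sh-CLGN in orange and a bar at the mean of each group of 3. The 8 genes from ACTB to TBP lie lower in sh-CLGN and SDHAF2 lies higher, and the groups do not overlap for any gene; YWHAZ turns to a higher value under scaling by read totals and under quantile normalization.

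The actins were the most abundant of the set. ACTB, on chromosome 7 (chr7:5527147-5563784, minus strand, GRCh38), measured 936, 947 and 855 FPKM in sh-NC and 653, 660 and 672 FPKM in sh-CLGN. Every sh-CLGN library was thus below the lowest sh-NC library, and the sh-CLGN libraries lay closer together than the sh-NC libraries. The means were 913 ± 50.2 FPKM (SD, n = 3) and 662 ± 9.79 FPKM (SD, n = 3), which puts ACTB in sh-CLGN at 72.5% of its sh-NC level (log2 fold change -0.46, 95% interval -0.59 to -0.33, limma adjusted p = 0.000215). Between 38064 and 48652 reads per library stand behind these values, so counting error is small beside the spread between libraries.

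ACTG1 (chr17:81509971-81523847, minus strand) measured 579, 572 and 525 FPKM in sh-NC and 411, 410 and 420 FPKM in sh-CLGN. Its level in sh-CLGN was 74.0% of that in sh-NC (log2 fold change -0.43, 95% interval -0.56 to -0.31, limma adjusted p = 0.000241). Scaled to ACTG1, ACTB changed by -0.03 on the log2 scale, with a 95% interval of -0.13 to 0.07, and among all 36 pairs of reference genes this was the pair whose ratio shifted least between the groups. The small shift was still larger than the spread within groups, since the log2 ratios of the groups did not overlap (0.71 on average in sh-NC and 0.68 in sh-CLGN). With quantile normalization ACTB was called lower (-0.24) and ACTG1 was not (-0.10, limma adjusted p = 0.0815). The other actins on the list, ACTA1, ACTA2, ACTC1 and ACTG2, had at most 5 reads in any library and were not tested.

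The actin genes are near copies of each other in their coding parts, so it was checked whether the primers that the study used for beta-actin can tell them apart. Both primers are shown because every qPCR ratio of the study rests on them. They are written 5′ to 3′, with capitals at the bases that differ from the best matching stretch of ACTG1.
ACTB forward primer: cccAgccatgtacgtTgcTa
ACTB reverse primer: tcAccGgagtccatCacGat
The forward primer lies at chr7:5528677-5528696 and the reverse primer at chr7:5528613-5528632, both in the coding part of exon 4 of a transcript with 6 exons (GENCODE 29, GRCh38), and they enclose 84 bases. Counted from the 5′ end of each primer, with the primer's base first and the ACTG1 base last, the differences are A4G, T16G and T19C in the forward primer and A3T, G6A, C15G and G18A in the reverse primer. Of 19 annotated ACTB transcripts, 10 hold both primers without a mismatch, and 0 other genes do. With up to 3 mismatches in each primer, 15 other genes hold the pair, among them ACTA2 and POTEF. None of these 15 had more than 6 reads in any library. ACTG1 falls outside this limit through its 4 mismatches to the reverse primer, and it had 20112 to 24989 reads per library. Both primers lie within 1 exon, so the same 84 bases would be copied from genomic DNA.

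The tubulins were the next group. TUBB (chr6:30720201-30725426, plus strand) measured 352, 330 and 332 FPKM in sh-NC and 229, 228 and 229 FPKM in sh-CLGN, or 67.6% of the sh-NC level (log2 fold change -0.56, 95% interval -0.67 to -0.45, limma adjusted p = 2.95e-05). The sh-CLGN libraries of this gene differed by less than any other group of the set, with a coefficient of variation of 0.353%. At 12417 to 17262 reads per library this is below typical counting error, so the closeness is not a trait of the gene. TUBA1B (chr12:49127782-49131397, minus strand) measured 191, 181 and 176 FPKM in sh-NC and 118, 115 and 124 FPKM in sh-CLGN, or 65.0% (log2 fold change -0.62, 95% interval -0.74 to -0.50, limma adjusted p = 3.16e-05). The alpha and beta partner kept their ratio to each other: scaled to TUBA1B, TUBB changed by 0.06 on the log2 scale, with a 95% interval of -0.07 to 0.18. TUBB against ACTG1 shifted by 0.13 and TUBA1B against ACTG1 by 0.19 on the log2 scale of the ratio, and in both cases the groups did not overlap. Against ACTB, TUBA1B shifted by 0.16 with groups apart, but TUBB shifted by 0.10 with overlapping groups and without a call (limma adjusted p = 0.112 and 0.141 with TUBB and ACTB as the reference). With quantile normalization TUBB (-0.23) and ACTB (-0.24) had similar changes.

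PPIA (chr7:44796680-44824564, plus strand) measured 300.1, 279 and 294 FPKM in sh-NC and 239.9, 219 and 213 FPKM in sh-CLGN, or 77.0% of the sh-NC level (log2 fold change -0.38, 95% interval -0.51 to -0.24, limma adjusted p = 0.000782). The highest sh-CLGN library remained below the lowest sh-NC library. Relative to PPIA, neither ACTB nor ACTG1 passed the test, with log2 changes of -0.08 (95% interval -0.26 to 0.09) and -0.05 (95% interval -0.22 to 0.11).

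YWHAZ, on chromosome 8, came closest to a constant level among the genes that were lower. It measured 70.2, 71.6 and 75.7 FPKM in sh-NC and 65.1, 63.9 and 62.2 FPKM in sh-CLGN. The groups lay apart by a narrow gap, between 65.1 and 70.2 FPKM. The sh-CLGN level was 87.9% of the sh-NC level (log2 fold change -0.18, 95% interval -0.29 to -0.07, limma adjusted p = 0.00985). This direction rests on the scaling: with read totals in place of the deposited library sizes the change of YWHAZ was 0.0087 (adjusted p = 0.892), with quantile normalization 0.11 (adjusted p = 0.103) and with TPM -0.06 (adjusted p = 0.414, all limma).

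The remaining 3 genes were expressed at much lower levels, and they held the extremes of the set. HPRT1 (chrX:134460153-134520513, plus strand) measured 15.1, 15.2 and 13.6 FPKM in sh-NC and 4.75, 6.12 and 4.77 FPKM in sh-CLGN. Its level in sh-CLGN was thus 35.6% of that in sh-NC (log2 fold change -1.34, 95% interval -1.56 to -1.12, limma adjusted p = 1.42e-05), beside 37.8% for CLGN, the target of the hairpin. These values rest on 125 to 361 reads per library, and the 3 sh-CLGN libraries varied by a coefficient of variation of 15.1%, the widest of the set.

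The 3′ untranslated region of HPRT1 holds a heptamer that pairs with bases 3 to 9 of the CLGN hairpin's guide strand, shown here because this gene fell furthest. It lies in exon 9 of 9 at chrX:134500455-134500483 (plus strand, GENCODE 29, GRCh38), with the heptamer in capitals.
HPRT1 site: tattgttaattATACCACcgtgtgttaga
The heptamer ATACCAC occurred in 9.70% of the 10916 genes tested here whose 3′ untranslated region could be read from the annotation, and in HPRT1 and YWHAZ among the reference genes. TACCACA, which pairs with the seed proper (bases 2 to 8), occurred in 13.1% of those genes and in YWHAZ alone of the 9. A match is a description of the letters, and whether the hairpin acts on either transcript was not tested.

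TBP (chr6:170554302-170572870, plus strand) measured 14.4, 13.2 and 13.4 FPKM in sh-NC and 8.77, 7.26 and 8.23 FPKM in sh-CLGN, or 59.2% of the sh-NC level (log2 fold change -0.69, 95% interval -0.86 to -0.52, limma adjusted p = 9.96e-05). SDHAF2 (chr11:61430042-61447529, plus strand) was the single gene of the 9 that was higher. It measured 11.8, 11.1 and 11.3 FPKM in sh-NC and 13.5, 13.7 and 12.5 FPKM in sh-CLGN, or 116% (log2 fold change 0.20, 95% interval 0.07 to 0.33, limma adjusted p = 0.0133). Its groups were separated by less than 1 FPKM, and the call was lost without sh-CLGN replicate 1 (log2 fold change 0.19, adjusted p = 0.0512) and without sh-CLGN replicate 2 (0.18, adjusted p = 0.0624). Reads numbered 276 to 480 for TBP and 403 to 570 for SDHAF2. SDHA, a complex II subunit on the list of other reference genes below, went the other way, at 79.5% of its sh-NC level (log2 fold change -0.31, limma adjusted p = 0.00244). Over the scalings SDHA ran from -0.31 to -0.09 and was not called under each of them (largest limma adjusted p = 0.22). The rise of SDHAF2 is thus not shared by SDHA.

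In order of their level per length in sh-NC, in FPKM, the genes ran from ACTB over ACTG1, TUBB, PPIA, TUBA1B and YWHAZ to HPRT1, TBP and SDHAF2. In sh-NC each of the first 6 stood apart from its neighbours beyond the spread between libraries, whereas TUBB and PPIA overlapped in sh-CLGN. HPRT1 and TBP overlapped in sh-NC, where they lay at 13.6 to 15.2 and 13.2 to 14.4 FPKM. In sh-CLGN the last 3 changed order, with SDHAF2 at 12.5 to 13.7 FPKM, TBP at 7.26 to 8.77 FPKM and HPRT1 at 4.75 to 6.12 FPKM.

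A missed or passed p does not by itself say whether a gene is steady enough to divide by. Therefore each 95% interval was set against a band of 1.2-fold up or down (0.26 on the log2 scale), a margin chosen for this purpose. Of the 9 reference genes 0 had an interval wholly inside the band, as against 12.6% of all genes tested. YWHAZ and SDHAF2 had their estimates inside the band but their intervals crossed it, while the intervals of ACTB, ACTG1, TUBB, TUBA1B, TBP and HPRT1 lay wholly outside. The interval of PPIA crossed its edge, since its upper end was -0.24.

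A further 46 genes that are often used as references were counted in the same way. Of these, 34 were lower, 4 were higher and 8 did not pass the test, with a median log2 fold change of -0.38, beside 39.0% lower, 26.7% higher and a median of -0.08 over all genes tested. Under the other scalings, the counts lower and higher were 31 and 7 with TPM, 22 and 9 with read totals, 20 and 12 with quantile normalization and 32 and 6 with a GC correction, and the median stayed below 0 in each. The matching shares of all genes tested, lower and higher, were 30.0% and 32.8% with TPM, 26.2% and 37.9% with read totals, 32.5% and 30.2% with quantile normalization and 34.2% and 32.8% with the GC correction. The lower genes included GAPDH, the glycolytic dehydrogenase, which went from 1007 ± 35.4 to 490.1 ± 7.93 FPKM (log2 fold change -1.04, limma adjusted p = 3.16e-06), GUSB, a lysosomal glucuronidase (-0.95), and the glycolytic kinase PGK1 (-0.73). The higher genes included B2M, the light chain of MHC class I, which rose from 45.9 ± 1.02 to 66.7 ± 2.16 FPKM (0.53), EMC7, a subunit of the ER membrane insertase (0.49), and REEP5, an ER shaping protein (0.27). Smallest changes were those of EIF4A2 (-0.01), ELF1 (-0.02), VCL (0.04), PCNA (-0.05) and TOP1 (0.08). All 5 had intervals inside the 1.2-fold band under the deposited scaling, but EIF4A2, ELF1 and PCNA changed sign between scalings, between -0.18 and 0.28 for EIF4A2. TOP1 and VCL kept their sign, but ran from 0.03 to 0.37 and from 0.04 to 0.26 over the scalings.

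**Figure D2:**
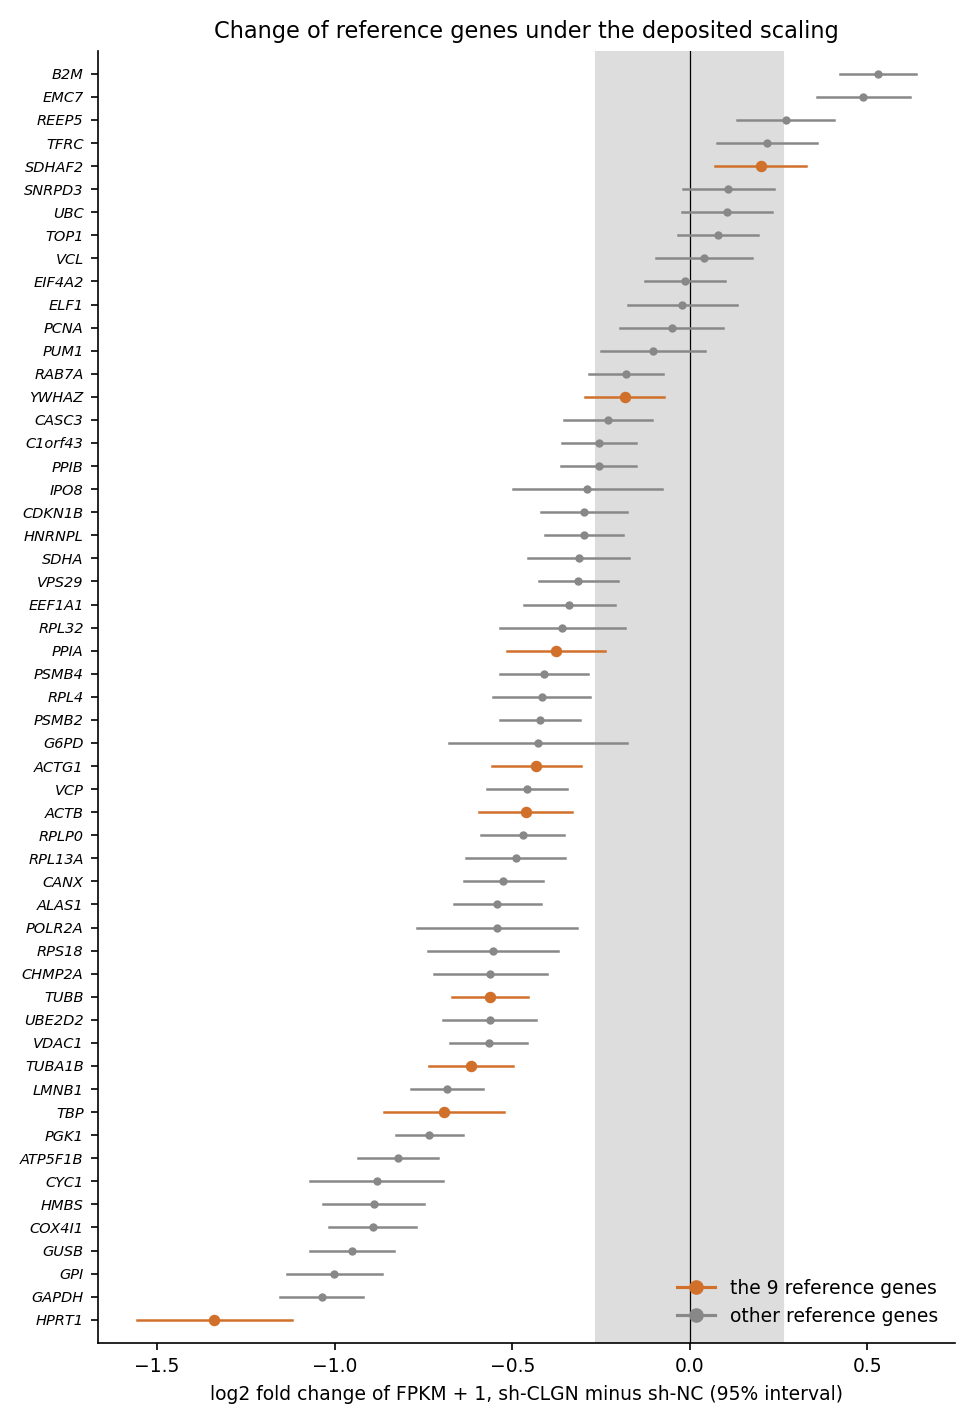
Log2 fold change of FPKM + 1 (sh-CLGN minus sh-NC) with its 95% limma interval for the 9 reference genes (orange) and 46 other reference genes (grey) under the deposited scaling, ordered by change. The grey band spans 1.2-fold up or down; no orange interval lies wholly inside it, HPRT1 lies lowest at -1.34, and the side of 0 on which YWHAZ, EIF4A2, ELF1 and PCNA lie changes with the scaling.

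The choice of scaling shifted the whole set. The median log2 fold change of all genes moved from -0.08 under the deposited scaling to 0.08 with read totals and 0.03 with TPM, shifts of 0.16 and 0.11, and to -0.02 with quantile normalization. The split of higher and lower calls over all genes moved with it, from 3496 higher and 5102 lower to 4957 and 3421 with read totals, 4285 and 3923 with TPM, 3954 and 4251 with quantile normalization and 4284 and 4474 after a GC correction. Relative to that median, ACTB stood at -0.39 under the deposited scaling, -0.35 with read totals, -0.37 with TPM and -0.23 with quantile normalization. HPRT1 stood at -1.26, -1.25, -1.36 and -1.21 in the same order. SDHAF2 remained above the median under each of the 4, by 0.28 to 0.39, and TBP stood between -0.65 and -0.53. PPIA stood at -0.30, -0.27 and -0.28 under the first 3 but at -0.02 with quantile normalization. YWHAZ stood at -0.11, -0.07 and -0.09 under the first 3 and at 0.13 with quantile normalization. HPRT1, TBP, TUBA1B, TUBB and ACTB passed the test in the lower direction under all of these.

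Base composition moved with the change of a gene in these libraries. Split into 10 bins of about equal size by transcript GC content, tested genes had a median log2 fold change of 0.23 in the bin with the lowest GC content and -0.29 in the bin with the highest. ACTG1 (57.8% GC), ACTB (55.1%), TUBA1B (54.7%) and TUBB (52.6%) lay in bins with medians of -0.25 to -0.21. With the GC trend removed per library, the changes were -0.24 for ACTB, -0.19 for ACTG1, -0.40 for TUBA1B and -0.37 for TUBB, all still called. HPRT1 (40.6% GC) and YWHAZ (40.7% GC) lay in a bin with a median of 0.12, and their changes became -1.44 and -0.28. SDHAF2 (47.2% GC) went from 0.20 to 0.29. All 9 passed the test after this correction, in the direction of the deposited scaling.

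**Figure D3:**
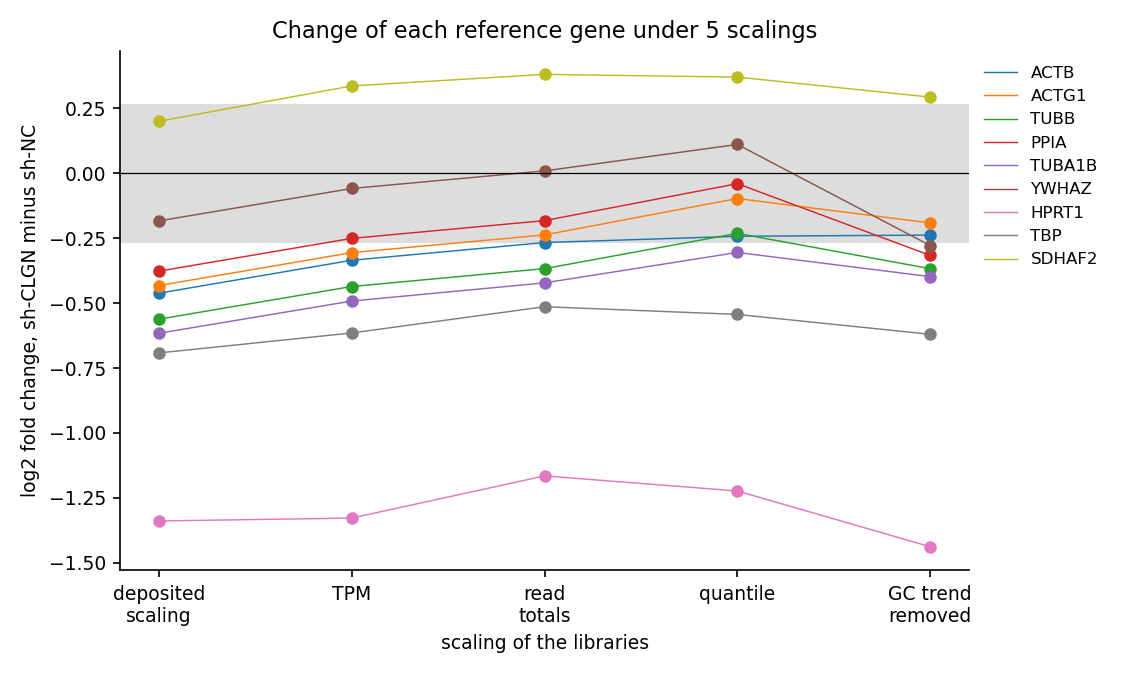
Log2 fold change (sh-CLGN minus sh-NC) of each of the 9 reference genes under the deposited scaling, TPM, read totals, quantile normalization and after removal of the GC trend, with thin lines joining the values of 1 gene. The grey band spans 1.2-fold; HPRT1 stays below -1 and SDHAF2 above 0 in all 5, while YWHAZ crosses 0 with read totals and quantile normalization.

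A single factor per library, as in the deposited scaling or read totals, cancels in the ratio of a pair of genes within that library, whereas quantile normalization and the GC correction can change the ratio. Relative to ACTB, for example, the log2 fold change of YWHAZ was higher under the deposited scaling (-0.18 against -0.46) but slightly lower after the GC correction (-0.28 against -0.24). The ratios here are of the deposited values. Of the 36 ratios among the 9 genes, 31 had groups that did not overlap. The share among pairs of all genes tested was not computed. Among single genes, 41.5% had groups apart downward and 28.7% upward under the deposited scaling. The counts of pairs therefore do not set the reference genes apart from other genes. In 29 pairs each gene passed the test in a fit scaled to the other, in 6 pairs neither did, and for TUBB with TBP the call depended on which of them was the reference (adjusted p = 0.0901 and 0.0498, limma). The 6 were ACTB with ACTG1, PPIA and TUBB, ACTG1 with PPIA, TUBB with TUBA1B, and TUBA1B with TBP. The widest shift was that of HPRT1 against SDHAF2, whose ratio fell by 1.72 on the log2 scale. HPRT1 took part in all 5 pairs that shifted by at least 1.

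A pairwise score of steadiness, the mean SD of a gene's log2 ratios to the other 8 over the 6 libraries (the geNorm M value), was computed from these ratios. It was lowest for ACTG1 (0.205), ACTB (0.205) and TUBB (0.205), followed by TUBA1B (0.218), PPIA (0.224), TBP (0.276), YWHAZ (0.279), SDHAF2 (0.461) and HPRT1 (0.627). Genes that fell together therefore scored as steady. The order by each gene's own SD over the 6 libraries was different: YWHAZ had the lowest SD of log2(FPKM + 1), 0.108, and SDHAF2 the next, 0.12, while ACTB had 0.258. These orders were not tested against each other.

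What a library looks like depends on the reference by which it is divided, so all libraries were rescaled to each reference gene in turn and the whole table was fitted again. Scaled to ACTB, 7245 of 13074 genes (55.4%) were higher in sh-CLGN and 1673 (12.8%) lower, where the deposited scaling had 3496 higher and 5102 lower. ACTG1 gave 53.2% higher and 13.9% lower, and PPIA 47.4% and 14.1%. With the tubulins the lean was stronger, at 64.3% higher and 9.61% lower for TUBB and 68.0% and 8.05% for TUBA1B. TBP gave 73.2% higher and 4.38% lower. HPRT1 was the extreme, with 95.3% of genes higher and 0.451% lower. In that fit every gene carries the spread of HPRT1 itself, which rests on 125 to 361 reads per library. All genes share this spread, and the fit does not treat it as shared. The p-values of fits scaled to HPRT1, and in part to TBP, are therefore likely too small and their intervals too narrow. SDHAF2 alone turned the balance the other way, with 16.8% higher and 51.2% lower. YWHAZ gave the most even split, 36.3% higher and 25.0% lower, and the geometric mean of all 9 gave 61.0% and 10.8%. The median log2 fold change over all genes ran accordingly from -0.25 with SDHAF2 to 0.08 with YWHAZ, 0.30 with ACTB and 1.14 with HPRT1. Dividing by a gene moves every other gene by that gene's own change, and the counts follow from it.

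**Figure D4:**
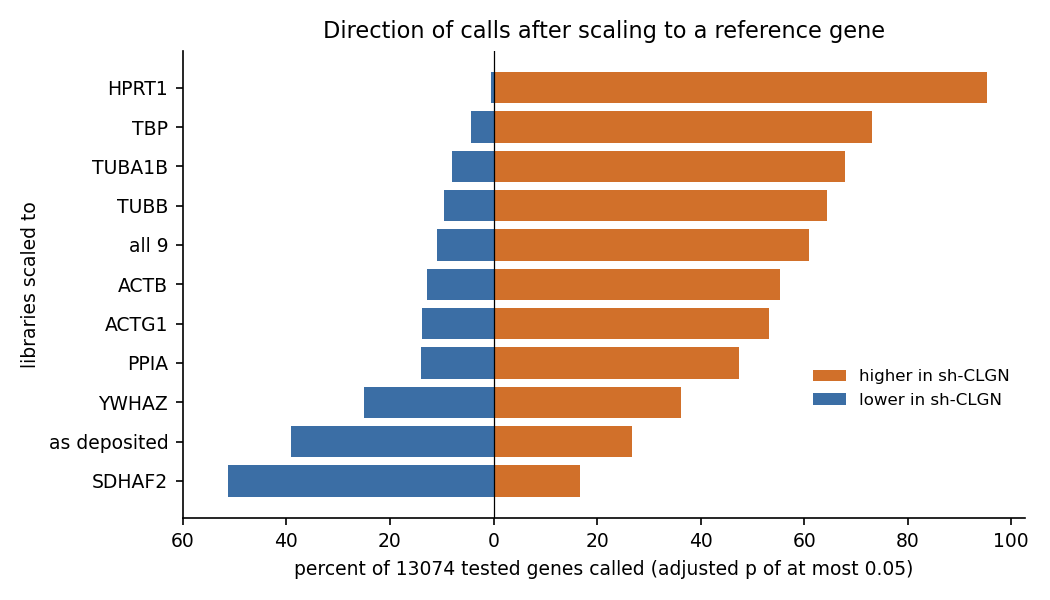
Percent of the 13074 genes tested that were higher (orange, to the right) or lower (blue, to the left) in sh-CLGN at an adjusted p of at most 0.05, after scaling the libraries to each reference gene, to all 9, or as deposited. Bars start at 0. Higher calls run from 16.8% with SDHAF2 to 95.3% with HPRT1, where the p-values are likely too small.

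Of the transcripts for which the study lists qPCR primers, CLGN, HSPA5, UNC5B, EIF2AK3, ATF6 and ERN1 were set against each reference gene in these libraries. The study reports qPCR of HSPA5, UNC5B and GPR1 with and without tunicamycin, an inducer of ER stress. Only for CLGN does its text also report qPCR in knockdown cells. The ratios here compare sh-CLGN with sh-NC and do not bear on the tunicamycin comparisons. GPR1, which was also assayed, had at most 2 reads in any library and was not tested. HSPA5 encodes BiP, the main chaperone of the ER lumen. EIF2AK3 (PERK), ATF6 and ERN1 (IRE1) are the sensors of the unfolded protein response, and UNC5B is a netrin receptor. CLGN in sh-CLGN was at 52.3% of its sh-NC level relative to ACTB (log2 fold change -0.88, limma adjusted p = 0.000203), at 43.2% relative to YWHAZ and at 32.7% relative to SDHAF2. Relative to HPRT1 it was at 107%, with a log2 fold change of 0.09 and a 95% interval of -0.22 to 0.41 (adjusted p = 0.561). That interval is likely too narrow, as in all fits scaled to HPRT1. The hairpin's own target was thus called lower with 8 of the 9 references.

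HSPA5 showed the reverse of its deposited direction with most references. As deposited it measured 298, 323 and 303 FPKM in sh-NC and 276, 273 and 275 FPKM in sh-CLGN, lower by a log2 fold change of -0.16 (limma adjusted p = 0.0184). Relative to ACTB it was at 123% of the sh-NC level (0.30, 95% interval 0.17 to 0.43, adjusted p = 0.00188). In all, HSPA5 was called higher relative to 7 references, lower relative to SDHAF2 (76.9%) and not called relative to YWHAZ (102%, 95% interval -0.12 to 0.16 on the log2 scale). The HSPA5 values are the same in all of these ratios, and only the divisor differs. The call of HSPA5 relative to PPIA (log2 fold change 0.21, adjusted p = 0.0329) was lost without any 1 of sh-NC replicates 1 and 3 and sh-CLGN replicates 2 and 3, with adjusted p between 0.0709 and 0.116, and on all 6 libraries when limma was fitted without the intensity trend (adjusted p = 0.0674).

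The other transcripts kept or changed their direction to different extents. EIF2AK3 measured 6.09, 6.64 and 7.25 FPKM in sh-NC and 8.27, 9.14 and 8.14 FPKM in sh-CLGN. It was higher relative to 8 references, at 176% with ACTB, and not called with SDHAF2 (110%). ATF6 was not called as deposited (log2 fold change -0.16, adjusted p = 0.0598), but was higher with 5 references, lower with 1 and not called with 3. Relative to ACTB it stood at 121% (0.24, adjusted p = 0.0416), a call that was lost when any of 4 libraries was left out (sh-NC replicates 1 and 2 and sh-CLGN replicates 1 and 2, adjusted p = 0.122, 0.13, 0.132 and 0.0969). ERN1 was lower with 6 references, at 79.3% with ACTB, higher with HPRT1 (163%) and not called with TBP and TUBA1B. UNC5B was lower with 8, at 64.0% with ACTB, and higher with HPRT1 (131%, adjusted p = 0.0233). The call with HPRT1 was kept only when sh-CLGN replicate 2 was the library left out, and its p-value is likely too small. Relative to TUBB, ERN1 (85.1%, adjusted p = 0.0336) lost its call without sh-NC replicates 1 or 2 or sh-CLGN replicates 1 or 2.

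**Figure D5:**
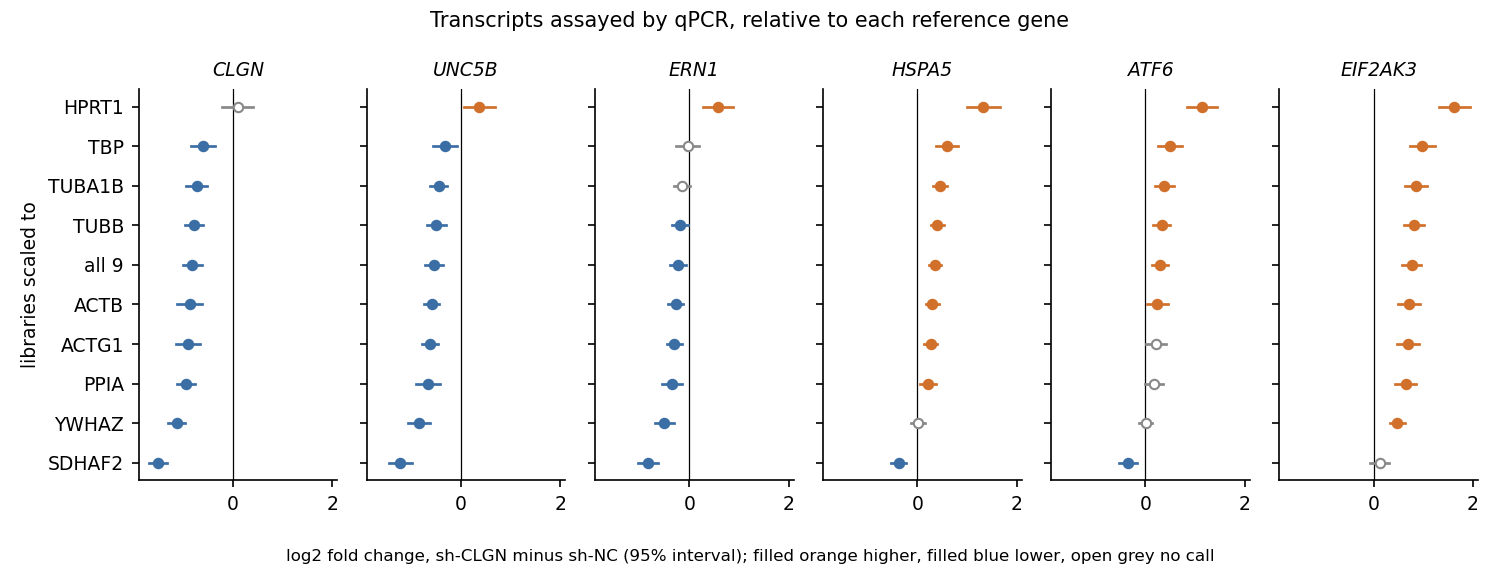
Log2 fold change (sh-CLGN minus sh-NC) with 95% limma interval of 6 transcripts for which the study lists qPCR primers, after scaling the libraries to each reference gene or to all 9. Filled orange points were called higher, filled blue points lower and open grey points were not called. HSPA5 and ATF6 run from lower with SDHAF2 to higher with HPRT1, where intervals are likely too narrow.

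The relatives and partners of each reference gene were counted next, to be read beside the 39.0% lower and 26.7% higher among all genes tested under the deposited scaling. The shares lower and higher over all genes were 26.2% and 37.9% with read totals and 30.0% and 32.8% with TPM. They were 32.5% and 30.2% with quantile normalization and 34.2% and 32.8% with the GC correction. With read totals and TPM the balance thus turned over all genes too. Among proteins that bind actin or set its polymerization, 10 of 33 tested were higher and 16 lower, with a median of -0.14. The balance turned with read totals (14 higher, 6 lower, median 0.06), quantile normalization (17 and 5, median 0.16) and TPM (13 and 8, median -0.01). TPM2, a tropomyosin, rose from 21.1 ± 2.04 to 56.5 ± 2.29 FPKM (log2 fold change 1.38), and TMSB4X, the monomer-binding thymosin beta 4, from 2.84 ± 0.352 to 11.9 ± 1.79 FPKM (1.74). The capping protein subunit CAPZA2 also rose (0.61). PFN2, a profilin that binds actin monomers, fell from 28.6 ± 1.45 to 14.8 ± 0.973 FPKM (-0.91), and the severing protein GSN (-0.58) and the coronin CORO1C (-0.50) fell too. Of the 15 tested genes of the CCT chaperonin and its helpers, which fold actin and tubulin, 3 were higher and 6 lower, and quantile normalization turned this to 8 higher and 1 lower. CCT7 fell from 183 ± 3.99 to 102 ± 2.34 FPKM (-0.84), while its partner subunit CCT6A rose from 111 ± 4.39 to 161 ± 3.01 FPKM (0.53). PFDN1, a prefoldin subunit, rose (0.75).

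Tubulins were counted without the reference pair. In the beta class, 3 of 4 tested were lower and 0 were higher. TUBB6 (log2 fold change -0.12, limma adjusted p = 0.0574) did not pass, and 1 beta tubulin was called higher with quantile normalization and with the GC correction. TUBB4B, the most abundant, fell from 493 ± 29 to 291 ± 3.34 FPKM (-0.75). In the alpha class, 2 of 3 were lower and 1 was higher under the deposited scaling and the other 4. TUBA1C fell from 107 ± 5.44 to 58.8 ± 0.902 FPKM (-0.85) and TUBA4A from 3.19 ± 0.358 to 1.12 ± 0.184 FPKM (-0.98). TUBA1A was the exception and rose from 1.79 ± 0.463 to 4.04 ± 0.439 FPKM (0.86). Of 10 other tubulins and tubulin cofactors, 7 were lower and 1, TUBG2, was higher, and with read totals the counts were 2 lower and 3 higher.

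Within TFIID and its relatives, of which 28 were tested with TBP among them, 7 genes were higher and 11 lower, shares close to those over all genes tested. With read totals 10 were higher and 8 lower, and the median turned from -0.13 to 0.03. TAF7, a TFIID subunit, rose from 37.2 ± 1.47 to 57.1 ± 1.71 FPKM (0.60), as did BTAF1 (0.76), which strips TBP from DNA, and TAF1 (0.65). DRAP1, a subunit of the repressor that binds TBP, fell (-0.80). Of 19 purine salvage and synthesis genes with HPRT1 among them, 13 were lower, 3 higher and 3 not called, and lower calls outnumbered higher ones under each of the 5 scalings. IMPDH1, which makes the precursor of guanine nucleotides, fell from 26.9 ± 2.22 to 13.3 ± 0.794 FPKM (-0.96) and PAICS from 56.0 ± 0.548 to 38.3 ± 1.46 FPKM (-0.54). GDA, the guanine deaminase, rose (0.52).

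Among cyclophilins, PPIA included, 5 of 15 tested were higher and 6 lower, again close to the shares over all genes tested. With read totals 7 were higher and 4 lower, and with quantile normalization 7 and 3. NKTR rose from 2.56 ± 0.339 to 7.01 ± 0.0385 FPKM (1.18) and PPIL2 fell from 12.3 ± 0.139 to 6.55 ± 0.2 FPKM (-0.82). The mitochondrial PPIF fell as well (-0.60). Around complex II, SDHAF2 was the single gene called higher and 5 of 8 were lower, whereas quantile normalization gave 3 higher and 2 lower. SDHD, a membrane anchor of the complex, fell from 18.6 ± 0.544 to 8.84 ± 1.2 FPKM, or 47.6% of the sh-NC level. SDHAF4, another assembly factor, fell from 8.54 ± 0.926 to 4.06 ± 1.15 FPKM (-0.93). Among 7 genes of 14-3-3 proteins, YWHAZ included, 6 were lower and 1 was higher, but 3 and 1 with read totals and 2 and 1 with quantile normalization, where the median turned from -0.25 to 0.06. YWHAG fell from 116 ± 4.74 to 46.4 ± 1.33 FPKM (-1.30), far more than YWHAZ, and YWHAB rose slightly from 33.2 ± 0.0641 to 37.0 ± 1.19 FPKM (0.15).

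Copies of the reference genes could take or lend reads. PPIA has 88 annotated pseudogenes named after it, of which 35 had reads, and these held 2.18% ± 0.144 (SD, n = 3) of the reads on PPIA and its copies in sh-NC and 2.55% ± 0.0995 (SD, n = 3) in sh-CLGN. TUBB copies held 1.32% and 1.03%, and for the remaining members the share was below 0.3%. Adding these reads to the member left its log2 change without pseudocount at -0.37 for PPIA and -0.57 for TUBB. Of all windows of 100 bases in the longest transcript, 38.6% of those in TUBA1B, 18.7% in TUBB, 32.9% in SDHAF2 and 12.0% in PPIA occurred in transcripts of another gene on either strand. The share was 4.04% in YWHAZ, 0.14% in ACTB and 0% in ACTG1, HPRT1 and TBP. For TUBA1B and TUBB most of this is an annotated antisense gene (AC011603.2 and AL662797.1, at most 3 reads each), and for SDHAF2 it is the overlapping AP003108.2 on the same strand, with 13 to 41 reads. With windows of 50 bases the shares were 47.6% in TUBA1B, 34.6% in SDHAF2, 27.6% in TUBB and 19.1% in PPIA. They were 12.6% in YWHAZ, 7.01% in ACTB, 3.58% in ACTG1, 2.47% in TBP and 0% in HPRT1. How reads that fit several genes were counted, and whether strand was used, is not given in the sources used here. Reads of every member but HPRT1 that lie in such shared stretches could thus have been assigned in part to another gene or left out.

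Promoters were looked at because the actins moved together. RefSeq promoters (GRCh38.p14, a window from upstream of the start to just inside the transcript) matched 7 of the 9 genes, with ACTB and YWHAZ missing. A CArG box, the element bound by serum response factor, was found in ACTG1, beside 1.29% of 27305 promoters. It lies at -94 to -85 from the start at chr17:81512874-81512903 (minus strand), with the box in capitals.
ACTG1 promoter: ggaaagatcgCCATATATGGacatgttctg
The box reads the same on both strands in form, so either strand was covered. TATAAA, on either strand, was found in PPIA among the 7, beside 12.0% of all promoters. No match in the others says only that these letters are not in this window.

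Genes whose pattern over the 6 libraries was most like that of a reference gene were sought among 10977 protein-coding genes, by the Euclidean distance of centred log2(FPKM + 1) values. The nearest were IMPA2 for ACTB (distance 0.0297), PRMT5 for ACTG1 (0.0318), RABEPK for TUBB (0.0421), RPL10 for PPIA (0.0524), ENO1 for TUBA1B (0.0548) and SRD5A1 for YWHAZ (0.0412). For the less abundant genes the nearest were CDCA4 for HPRT1 (0.113), NDE1 for TBP (0.101) and ADH6 for SDHAF2 (0.0565). All these distances were taken over the same 6 libraries and under the deposited scaling.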

How the data were processed

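The 6 Hep-G2 libraries (3 sh-NC, 3 sh-CLGN) were made with an NEBNext Ultra kit. The authors deposited 1 table of FPKM per gene. Per the submitters' processing notes, HISAT2 2.0.5, featureCounts and GRCh38 were used, and gene positions equal GENCODE 29 for all 58735 genes. Strand and multi-mapping settings are not given in the sources used here. FPKM times gene length gave whole reads for 100% of values (within 0.01 of a read), and median-ratio size factors of the deposited values were 1.008 in each library, so such a scaling was already in them.

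Genes that reached 1 FPKM in 3 or more libraries were tested with limma 3.58.1 (R 4.3.3, eBayes with trend) on log2(FPKM + 1), two-sided, with Benjamini-Hochberg adjustment. Calls took an adjusted p of at most 0.05. The smallest p of an exact permutation test of 3 against 3 is 0.1, so none was used. The fit was checked on simulated data. Replicate numbers do not pair the libraries (correlations of deviations -0.018, -0.046 and -0.146). Members, lists and margin were chosen with earlier results of these data known. Named genes are the 9 members, GAPDH, the 6 qPCR transcripts, up to 3 risers and 3 fallers per list by adjusted p, the 5 smallest changes among other reference genes, the nearest gene of each member and the 10 steadiest genes. TUBB6, GPR1, LUM, SDHA and PDGFRA were named after their values were seen. So were the markers and actins near 0 reads, the overlapping genes and the genes that hold near matches to the primers. Alternatives were another pseudocount, no filter, other scalings, no trend, protein-coding genes, voom on recovered reads, a GC correction (lowess span 0.3), a replicate block and leaving out each library. Reads carry no molecular identifiers, so read numbers cover counting error only.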

Additional observations from a re-analysis of the deposited data

How the results depend on the processing

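The 9 changes were recomputed under 17 alternatives each, and 146 of these 153 values kept their direction and their side of the threshold. Part of this was fixed in advance. No filter, no trend, protein-coding genes only and the replicate block leave the estimate itself unchanged. Median-ratio scaling hardly moves it, since such a scaling was already in the values. In these the direction could not turn, and only the p-value could differ. With quantile normalization ACTG1 (-0.10, adjusted p = 0.0815) and PPIA (-0.0403, adjusted p = 0.489) were no longer called, YWHAZ turned to 0.11, and 5 in place of 8 reference genes were called lower (limma). Read totals turned YWHAZ to 0.0087, and TPM left it at -0.0589 without a call. The count inside the 1.2-fold band was 1 with read totals, 1 with TPM and 3 with quantile normalization in place of 0, and 0 to 1 when a library was left out (1 without sh-NC replicate 3). The cause was not tested. Leaving out a library gave SDHAF2 0.18 to 0.24 and ATF6 relative to ACTB 0.19 to 0.33. It gave values on both sides of 0 for HSPA5 relative to YWHAZ (-0.0189 to 0.0662), ATF6 relative to YWHAZ (-0.0191 to 0.0231), CLGN relative to HPRT1 (-0.0104 to 0.22) and ERN1 relative to TBP (-0.0684 to 0.0297), none of them called. With the replicate number as a block, ATF6 relative to ACTB kept its value of 0.24 but lost its call (adjusted p = 0.0815), ERN1 relative to TUBB lost its call (adjusted p = 0.0704), and no call of the 9 genes themselves changed. The replicate numbers mark no shared culture or day in the labels. All 90 recomputed counts of higher calls and all 90 of lower calls after scaling to a reference stayed within 1.5 times, and all 71 recomputed steadiness scores moved by less than their spread within groups. Depth limits HPRT1, TBP and SDHAF2, with 125 to 570 reads per library.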

Other observations

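Other genes held their level more closely than any of the 9. Among 2268 protein-coding genes with a mean of at least 20 FPKM, the 10 with the lowest SD of log2(FPKM + 1) over the 6 libraries were YTHDF1, SRPRB, ARMC1, ANXA2, SLC25A38, H3F3A, RAN, NPM1, GLYR1 and FTSJ3. YTHDF1, a reader of methylated adenosines in mRNA, measured 33.8 ± 0.487 FPKM (SD, n = 3) in sh-NC and 33.2 ± 0.35 FPKM (SD, n = 3) in sh-CLGN. The nucleolar chaperone NPM1, the most abundant of them, measured 249 ± 2.29 and 248 ± 6.89 FPKM. RAN, the GTPase of nuclear transport, measured 86.5 ± 1.64 and 87.0 ± 1.91 FPKM, and the histone gene H3F3A 93.9 ± 2.14 and 92.5 ± 1.16 FPKM. On the same ranking YWHAZ was at place 443, PPIA at 1116, ACTG1 at 1272, ACTB at 1359, TUBB at 1558, TUBA1B at 1675 and GAPDH at 2121. These genes were picked by their low spread under the deposited scaling, so their values are a description and support no choice of reference in other samples or under another scaling.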
